A study of Caenorhabditis elegans with 2 samples.

Results

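The 6 genes described here encode subunits of the machinery that carries proteins into mitochondria: timm-23 and timm-17B.1 of the inner membrane translocase, and tomm-20, tomm-22, tomm-40 and tomm-7 of the outer membrane translocase. They were taken by name from 19973 protein-coding genes on the nuclear chromosomes, and every deposited peak with its summit in their 5' windows or gene bodies was collected. The 5' window begins 1000 bp before the annotated 5' end and stops 200 bp into the gene. Peaks were mapped by chromatin immunoprecipitation with sequencing (ChIP-seq) in whole Caenorhabditis elegans L4 larvae of strain RW12291, aged 47.5 hours after synchronisation by L1 starvation. In this strain the endogenous Y48G9A.11 gene on chromosome III carries TY1, EGFP and 3xFLAG tags inserted with CRISPR, and the fusion protein was recovered with an antibody against GFP. The 2 biological replicates form 1 group and share this genotype, stage and age. No untagged animals or other tagged protein were analysed here, so binding by the fusion protein and general recovery of open, transcribed chromatin cannot be told apart at any of these genes. Whole animals were used, so the tissue in which a peak arose cannot be told either.

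Most mitochondrial proteins are encoded in the nucleus, made in the cytosol and imported through membrane-spanning complexes. The outer membrane complex (TOM) recognises incoming precursors with its receptors, passes them through a channel and hands proteins bound for the matrix to the inner membrane complex (TIM23), which works with a chaperone motor on the matrix side. In C. elegans, inefficient import sends the transcription factor encoded by atfs-1 to the nucleus, where it starts the mitochondrial unfolded protein response.

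A peak passed the authors' threshold at 2 of the 6 genes, timm-23 and tomm-20, and both peaks were listed in each replicate. The thresholded list that the authors derived from the 2 replicates combined, called the main list here, holds 2228 peaks, and 6.13% of all protein-coding genes have one of its summits in their 5' window. The same 2 genes had a peak in the conservative list (6.01% of protein-coding genes), in the lists of replicate 1 (4.30%) and replicate 2 (4.03%), and in both of those (3.14%). With 6 genes chosen when these peaks were already known, that count is a description and was not tested. No main summit lay in the body of any of the 6 genes. Only 4.31% of protein-coding genes have one there, so this absence does not set the 6 genes apart. Each signal value is a score from the authors' lists, computed against a control, and its scale is not given. For the 844 main peaks that overlap a listed peak in each replicate, the signal from both replicates together divided by the sum of the replicates' signals had a median of 1.00 and ran from 0.94 at the 10th percentile to 1.05 at the 90th. Weak candidates need not add up in this way, and levels are read against other peaks of the same list.

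The peak at timm-23, which encodes the channel-forming subunit of the TIM23 complex, was among the strongest in the genome. In genome build ce11, timm-23 lies on the plus strand of chromosome I from 11578641 to 11579612, and its peak ran from 11578232 to 11578575 with the summit 250 bp upstream of the 5' end, between genes. The signal was 593.9 in replicate 1 and 624.0 in replicate 2, and 1211.5 in the main list. These values placed it at rank 15 of 1358 peaks in the list of replicate 1, at rank 12 of 1200 in that of replicate 2 and at rank 15 of 2228 in the main list. The replicates' summits were 1 bp apart. Across those 844 main peaks, the median distance between the replicates' summits was 15.5 bp. The value of replicate 1 divided by that of replicate 2 was 0.95 at timm-23, and over those peaks it had a median of 0.97 and ran from 0.72 at the 10th percentile to 1.28 at the 90th.

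The timm-23 peak is shared with the divergent neighbour F15D3.6, a protein-coding gene on the minus strand whose 5' end is 903 bp from the summit and 1152 bp from that of timm-23 across the intergenic space. The summit was nearer to timm-23. Further main peaks followed downstream of timm-23. A peak with a signal of 552.1 had its summit 1111 bp downstream of the 5' end of timm-23, inside the lysine tRNA gene F15D3.t1, and another with a signal of 736.6 lay 1701 bp downstream inside the protein-coding gene pals-1. Both were listed in each replicate, with 295.4 and 269.5 at the tRNA gene and 388.3 and 356.4 in pals-1 for replicates 1 and 2. Of the 3 neighbouring peaks, that of the timm-23 5' end had the highest signal in each list. The main peaks next to it in rank lay in the windows of the ncRNA gene C46C2.12 (signal 1243.2) and of dcap-1 (signal 1188.2), which encodes an mRNA decapping protein.

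The peak at tomm-20, which encodes a receptor of the TOM complex, was weaker but also listed in each replicate. The gene lies on the minus strand of chromosome V from 12342314 to 12343469, and the main peak from 12343685 to 12343808 had its summit 300 bp upstream of the 5' end. The signal was 134.1 in replicate 1 and 175.0 in replicate 2, and 307.6 in the main list, at rank 240 of 2228. It stood at rank 299 of 1358 in the list of replicate 1 and at rank 197 of 1200 in that of replicate 2. Against the median signal of its list, the tomm-20 peak was 1.6 times as strong in replicate 1 and 1.8 times in replicate 2, while the timm-23 peak was 6.9 and 6.5 times as strong. At tomm-20 the value of replicate 1 divided by that of replicate 2 was 0.77. Over the 844 main peaks above, the 10th percentile was 0.72 and the median 0.97. The replicates' summits at tomm-20 were 10 bp apart. No other gene had this summit in its window. The gene upstream, snb-2, which belongs to the synaptobrevin family, lies on the same strand and ends 718 bp before tomm-20 begins, so the peak sat in the space between the 3' end of snb-2 and the 5' end of tomm-20. The neighbours in rank were peaks in the windows of npp-6 (signal 308.8), which encodes a nuclear pore protein, and pinn-1 (signal 307.3), which encodes a peptidyl-prolyl isomerase.

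**Figure D1:**
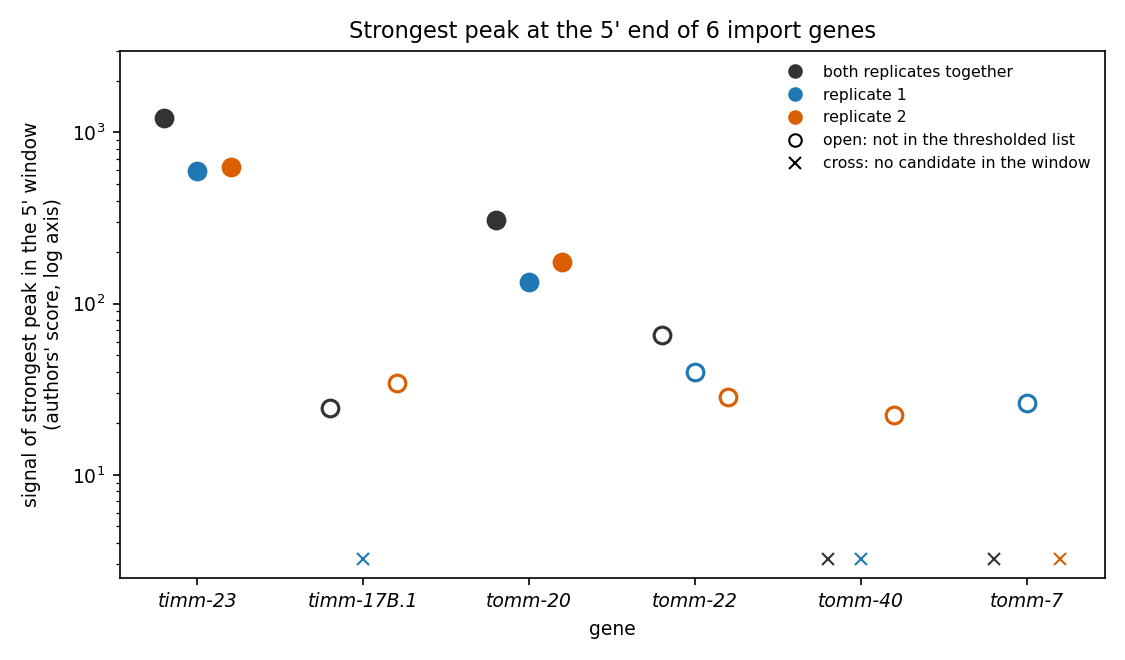
Signal of the strongest peak in the 5' window of each of the 6 genes (log axis, authors' score) in both replicates together, in replicate 1 and in replicate 2. Filled points passed the authors' threshold in that list, open points are candidates that did not, and crosses mark lists with no candidate in the window. Filled points stand at timm-23 and tomm-20 in all 3 lists, and open points elsewhere reach at most 65.5.

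The sequences under the peaks at tomm-20 and at the pathway genes ddp-1 and hsp-60, described further on, are shown to compare import-related promoters with a listed peak, beside a window of tomm-22, which had none. The sequence of the stronger peak at timm-23 is not printed, and its 344 bases hold no TGCGCA, so the 3 printed peaks are those of the 4 import-related main peaks that have these letters. How many of all main peaks hold them over their whole length was not counted. Each printed sequence is read 5' to 3' on the strand of its gene from RefSeq's copy of the same assembly (WBcel235). Capitals mark TGCGCA, a palindrome and so the same on both strands, which was chosen after the tomm-20 and ddp-1 sequences had been seen. The main peaks at tomm-20 (V 12343685 to 12343808), ddp-1 (III 1859678 to 1859800) and hsp-60 (III 1619042 to 1619226) are whole, and the tomm-22 window (II 470986 to 471086) is 101 bases around its strongest candidate summit.
tomm-20: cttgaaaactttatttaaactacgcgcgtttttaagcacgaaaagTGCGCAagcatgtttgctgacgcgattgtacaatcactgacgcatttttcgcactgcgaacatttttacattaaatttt
ddp-1: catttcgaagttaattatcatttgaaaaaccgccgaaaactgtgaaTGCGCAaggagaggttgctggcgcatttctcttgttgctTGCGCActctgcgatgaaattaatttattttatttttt
hsp-60: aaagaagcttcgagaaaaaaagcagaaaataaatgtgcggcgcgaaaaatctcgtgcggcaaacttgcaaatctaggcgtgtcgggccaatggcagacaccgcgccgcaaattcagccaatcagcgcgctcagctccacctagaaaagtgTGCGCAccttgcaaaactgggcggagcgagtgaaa
tomm-22: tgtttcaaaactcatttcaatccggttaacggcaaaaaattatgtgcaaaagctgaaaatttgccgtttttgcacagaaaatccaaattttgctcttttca

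In the tomm-20 peak the summit is base 40 and TGCGCA begins at base 46. The ddp-1 peak, with its summit at base 54, holds TGCGCA at bases 47 and 86, and the hsp-60 peak, with its summit at base 70, holds it at base 151. In 101 bases around the summit, TGCGCA was present in 62 of 2228 main peaks (2.78%), in 0.763% and 1.03% of windows of the same length centred 300 bp to the left and right of those summits, and in 1.16% of candidates outside the main list. By that measure, tomm-20 and ddp-1 held it, while the windows at timm-23 and hsp-60 did not, the match at hsp-60 lying farther from its summit. The longest stretch shared by the tomm-20 and ddp-1 peaks was 12 bases, AGTGCGCAAGCA, found in ddp-1 on the opposite strand. Including these peaks themselves, 5 of the 2228 main peaks hold it. The hsp-60 peak shared at most 9 bases in a row with either of them. ATTTTTCGC, shared with tomm-20, is in 58 main peaks, and ATTTATTTT, shared with ddp-1, is in 159. G and C made up 47.5% of the 101 bases at the timm-23 summit and 39.6% at that of tomm-20, against a median of 46.5% over main peaks (quartiles 39.6% and 52.5%) and 34.7% in their flanks. At the tomm-22 candidate the share was 32.7%, against a median of 40.6% over candidates outside the main list. The tomm-20 and ddp-1 peaks, from which TGCGCA was chosen, are among the 62, and the TGCGCA shares were not matched for G and C content. These matches and shares describe letters in a window and were not tested.

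The other 4 genes, timm-17B.1, tomm-22, tomm-40 and tomm-7, had no summit in the window or the gene body in the main list, in the conservative list or in either replicate's thresholded list. They were traced in the ranked lists of candidates, in which 61.5% of protein-coding genes have a summit in the window for both replicates together, 64.0% for replicate 1 and 62.6% for replicate 2. Over those 12282 genes, the strongest candidate in the window had a median signal of 44.6, with quartiles of 30.1 and 64.8.

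At tomm-22, which encodes a receptor that also forms part of the core of the TOM complex, a candidate stood in about the same place in each replicate. The gene lies on the minus strand of chromosome II from 468374 to 470475. Its strongest candidate had a signal of 39.95 at 535 bp upstream in replicate 1 and of 28.4 at 564 bp upstream in replicate 2, and of 65.5 at 561 bp upstream in both together. That pooled value was higher than in 75.7% of protein-coding genes with a candidate, but its score was 193, where the lowest score in the main list is 830. By replicate, the value was higher than in 83.6% of such genes in replicate 1 and in 54.0% in replicate 2. A score of 830 corresponds to an irreproducible discovery rate (IDR, a comparison of ranks between 2 lists of peaks) of 0.01. The nearest gene upstream, nsun-1, which encodes an rRNA methyltransferase, is on the same strand and ends 786 bp before the 5' end of tomm-22.

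At timm-17B.1, a partner of timm-23 in the inner membrane complex, no candidate at the 5' end passed the threshold, while peaks farther upstream did. The gene lies on the minus strand of chromosome IV from 4744377 to 4745492. A candidate 1 bp upstream of the 5' end had a signal of 34.4 in replicate 2, higher than in 69.0% of protein-coding genes with a candidate in that list, and replicate 1 had none in the window. In the source list of the main list a candidate 3 bp upstream had 24.4, below that single replicate and higher than in 16.6% of protein-coding genes with a candidate. Upstream of timm-17B.1 runs a chain of genes on the same strand: tctn-1 ends 330 bp before it, cyc-2.1 ends 62 bp before tctn-1, and rpl-20 ends 110 bp before cyc-2.1. Of these, cyc-2.1 encodes a cytochrome c and rpl-20 a protein of the large ribosomal subunit.

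The strongest main peak along that chain lay at its first gene. It had its summit 282 bp upstream of rpl-20 and 4568 bp upstream of timm-17B.1, with a signal of 487.6 at rank 114, and it had 248.3 in replicate 1 and 251.3 in replicate 2. Weaker main peaks stood 1 bp upstream of cyc-2.1 (signal 107.5), inside cyc-2.1 (signal 100.6) and inside tctn-1 (signal 88.0). Of these weaker peaks, that next to the 5' end of cyc-2.1 was in the list of replicate 1 with 65.5 and not in that of replicate 2, and the other peaks were in neither. Many C. elegans genes are transcribed in operons from a promoter upstream of the first gene, but whether these genes form an operon was not examined. A gene on the same strand within 500 bp upstream, a distance chosen after seeing the data, was present at 3612 protein-coding genes, of which 7.20% had a main summit in their own window, against 5.90% of the other genes.

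**Figure D2:**
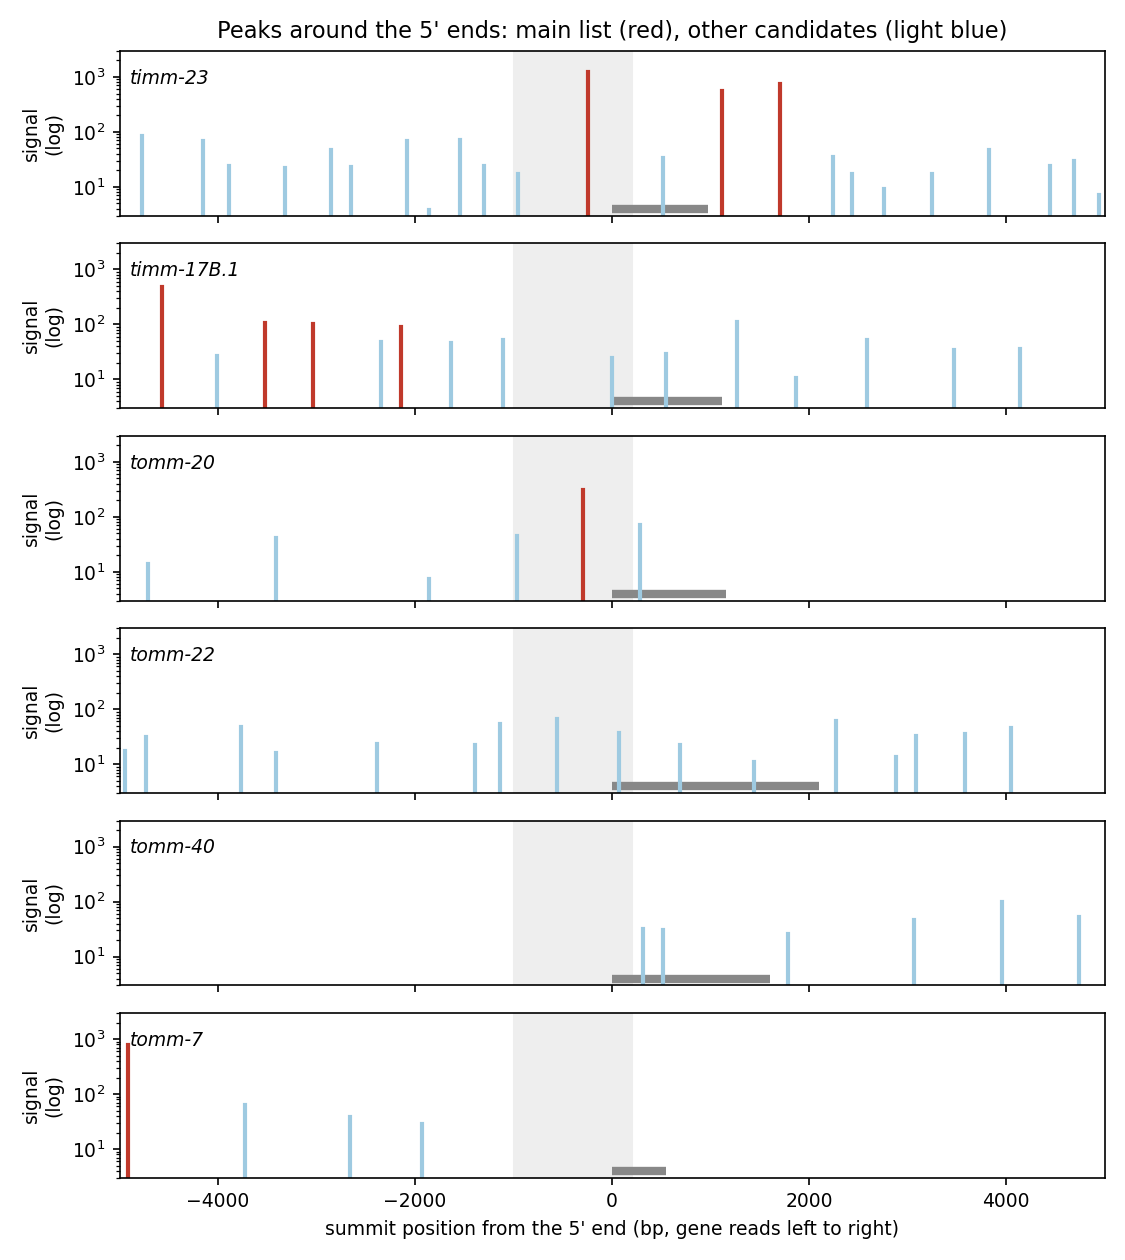
Peak summits within 5000 bp of the 5' ends of the 6 genes, with position in bp from the 5' end on the horizontal axis and the signal from both replicates together on a log axis. Red lines are main peaks, light blue lines are other candidates, grey bars are the genes and the shaded band is the 5' window. Main peaks stand in the window at timm-23 and tomm-20, while those near timm-17B.1 lie 2147 to 4568 bp upstream and that near tomm-7 lies 4919 bp upstream.

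At tomm-7, whose product is a small subunit of the TOM complex, and at tomm-40, which encodes the channel of that complex, the lists of both replicates together held no candidate in the window. The gene tomm-7 lies on the plus strand of chromosome III from 7859613 to 7860159, and ufm-1, which encodes a ubiquitin-like modifier, ends 100 bp upstream on the same strand with no main peak in its own window. A candidate with a signal of 26.2 stood 40 bp downstream of the tomm-7 5' end in replicate 1, with a score of 108, and none was listed in replicate 2. The nearest main peak, with a signal of 768.4, lay 4919 bp upstream. The gene tomm-40 lies on the minus strand of chromosome II from 8971965 to 8973566. Its strongest window candidate had a signal of 22.4 at 136 bp downstream in replicate 2, with a score of 47, and replicate 1 had candidates only inside the gene body, of which the stronger had 25.5. Candidates of both replicates together lay inside the tomm-40 gene at 312 and 516 bp downstream, with signals of 31.2 and 30.8.

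The 5' ends of both of these genes lie in long stretches that hold no candidate in the list of both replicates together. Around the 5' end of tomm-40 the stretch measured 19.1 kb, from 18761 bp upstream to 312 bp downstream, and around that of tomm-7 it measured 18.2 kb, from 1928 bp upstream to 16322 bp downstream. The typical spacing is far shorter, with a median of 1372 bp between the candidates on either side of a protein-coding 5' end. Stretches of 10 kb or more, a length chosen after seeing the data, numbered 1525 and covered 32.8% of the genome, while 79 measured 5 to 10 kb. They contain the 5' ends of 6569 protein-coding genes, of which 0.594% have a main summit in the window, against 8.85% of the 13400 genes outside them. The definition builds in most of that difference, since main peaks are themselves candidates. The stretches differed between the replicates. That at tomm-40 was present in replicate 1 at 16.4 kb and not in replicate 2, and that at tomm-7 was present in replicate 2 at 18.3 kb and not in replicate 1. In replicate 2, the listed tomm-20 peak stood at the edge of a stretch of 17.7 kb that begins 300 bp upstream of the gene and covers it. No step that would remove candidates from such stretches is described in the sources used here, and their part in the result was not tested. For tomm-40 and tomm-7 the missing candidates of both replicates together therefore do not show that signal was low. Each gene had a window candidate in the replicate without such a stretch. That of tomm-40 (22.4, replicate 2) was higher than in 36.8% of protein-coding genes with a candidate in that list. That of tomm-7 (26.2, replicate 1) was higher than in 58.0%.

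**Figure D3:**
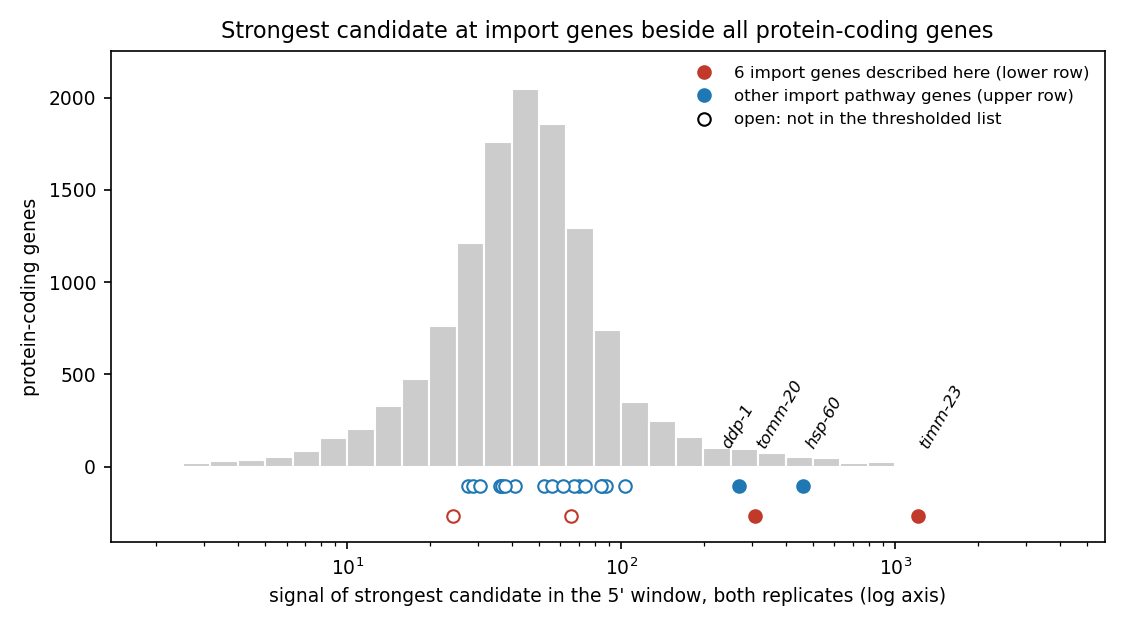
Number of protein-coding genes by the signal of the strongest candidate in their 5' window, both replicates together (log axis), with import genes as points below the bars: the 6 genes in the lower row and other pathway genes in the upper row, filled where a main peak is present. The filled points of ddp-1, tomm-20, hsp-60 and timm-23 lie at signals of 268.4 to 1211.5, and the open points lie between 24.4 and 102.9. Genes with no candidate in the window are not drawn.

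Other genes of the import pathway had main peaks at 2 of 22 (9.09%), a count near the 6.13% of all protein-coding genes and not tested. They come from a list of 36 symbols grouped by role, of which 28 matched the annotation, the 6 genes above included. The small TIM proteins guide hydrophobic precursors through the space between the membranes, and ddp-1, whose product is annotated as the Tim8 subunit, was the 1 of 5 such genes with a main peak. Its signal was 120.6 in replicate 1 and 147.1 in replicate 2, and 268.4 in the main list at rank 308, with the summit 157 bp upstream of its 5' end. The downstream gene ttc-7 on the same strand has this summit in its window too, at 698 bp. The chaperonin gene hsp-60, whose product folds proteins after import, had a peak of 225.2 in replicate 1 and 238.8 in replicate 2, and 461.3 in the main list at rank 130. That summit lay 631 bp upstream of hsp-60 and 182 bp upstream of the divergent gene Y22D7AL.10, which is annotated as the mitochondrial 10 kDa heat shock protein, the co-chaperonin that works with the product of hsp-60. The peak was nearer to Y22D7AL.10.

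Of the 20 remaining pathway genes, all without a main peak, 18 had a candidate in the window of the list of both replicates together. Over all protein-coding genes, including those with a main peak, 61.5% had one, with a median strongest signal of 44.6. The sets are therefore unlike. Strongest signals at the 18 genes ran from 27.6 to 102.9, with a median of 54.0. The highest belonged to mppb-1, a subunit of the peptidase that removes targeting sequences, with 102.9 at 303 bp upstream. Its score was 745 in the ranked list behind the main list and 699 in that behind the conservative list, where the threshold is 830. The score of atfs-1 was 676 and 743 in these lists (signal 84.6), so which gene came nearer to the threshold depended on the list. At scpl-4, annotated as the TIM50 subunit that receives precursors at the inner membrane, the scores were 664 and 303 (signal 69.9). The candidate at mppb-1 had 35.5 in replicate 1 and 67.8 in replicate 2. For the sorting and assembly complex of the outer membrane, none of 3 genes had a main peak, and the strongest candidate was at mtx-1 with 73.6. At tomm-70, a further receptor of the outer membrane, the strongest candidate had 52.4.

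The gene timm-17B.2, whose symbol marks it as a relative of timm-17B.1, had no candidate in the window of the list of both replicates, and neither did tin-44, the subunit that ties the chaperone motor to the channel. At timm-17B.2 the strongest candidates were 14.6 in replicate 1 and 23.2 in replicate 2. The matrix Hsp70 gene hsp-6, the motor itself, had a candidate of 61.3 in its window and a main peak of 89.8 inside the gene, 1051 bp downstream of the 5' end, that was in neither replicate's own list. No pathway gene other than timm-23, tomm-20, ddp-1 and hsp-60 had a listed peak in its window in either replicate.

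**Figure D4:**
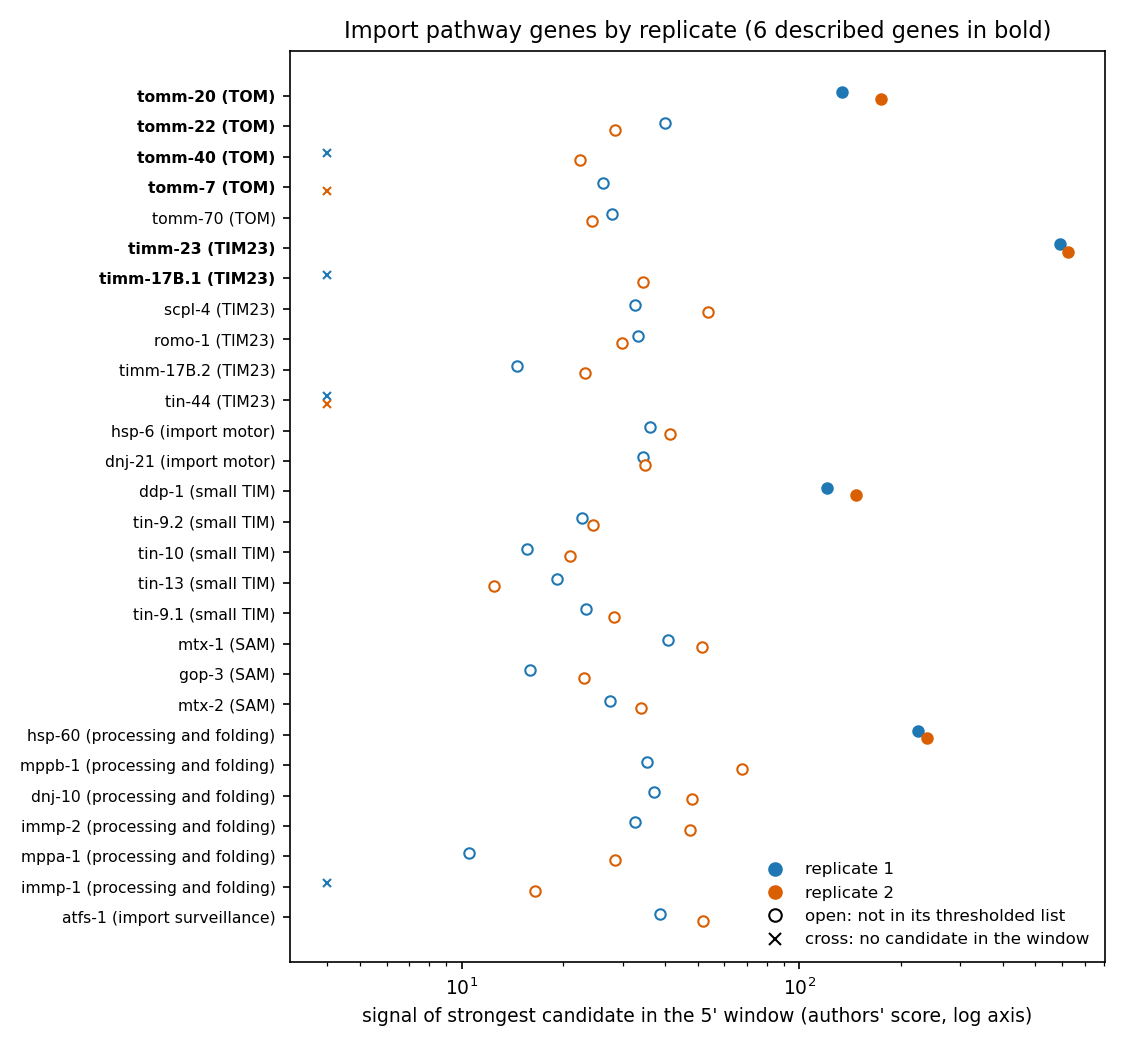
Signal of the strongest candidate in the 5' window of 28 import pathway genes in replicate 1 and replicate 2 (log axis, authors' score), grouped by role, with the 6 genes of the main account in bold. Filled points passed the threshold of that replicate's own list and crosses mark lists with no candidate in the window. The filled points of timm-23, tomm-20, ddp-1 and hsp-60 run from 120.6 to 624.0 and stand right of the open points, which reach 67.8 at most.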

How the data were processed

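Peak lists from ChIP-seq of 2 biological replicates, 1 group, were analysed; replicate numbers come from the labels. The authors deposited, per the file headers and text lists, ranked and thresholded narrowPeak lists on ce11 for each replicate and for both together. Column 7 is the signal score per peak given by the authors, column 5 the deposited score, and ranked lists give a deposited −log10 of the irreproducible discovery rate. For the aligner and the peak caller, names and versions are not given in the sources. No counts were used, so depth is unknown and no interval covers it. Per the labels, sonicated fragments measured 200 to 800 bp.

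Genes came from Ensembl release 115 (WBcel235) and products from RefSeq. Summits were assigned to windows with Python 3.11.15, numpy 2.4.6 and matplotlib 3.10.9, checked on simulated summits. Overlap meant at least 1 bp. The genes and lists were chosen with earlier results of these data known, and tin-44 was added as the annotation's name for timm-44. Named genes were the 6 genes, genes sharing their peaks, pathway genes with a main peak, the strongest candidate per role and the neighbours in rank; timm-17B.2, tin-44, atfs-1, scpl-4 and genes upstream or inside nearby peaks were added after values were seen. No test was run, since the genes were chosen with these peaks known and no condition was compared. Alternatives were windows of 500 and 2000 bp, the nearest 5' end, the list of either replicate alone, the conservative list, only the stronger 50% of peaks and, added later, genes outside candidate-free stretches. The list symbols without a match in the annotation (8 of 36) were not analysed here.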

Additional observations from a re-analysis of the deposited data

How the results depend on the processing

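The count of 2 of 6 genes with a main peak was the same under the conservative list, the stronger 50% of peaks (3.97% of all protein-coding genes), windows of 500 bp (4.80%) and 2000 bp (8.20%), the nearest 5' end (4.54%) and each replicate's own list, where it ranged from 2 to 2. Ranks of 15 and 240 of 2228 and summits 250 and 300 bp upstream fixed the outcome for the stronger 50% and both windows. With genes in candidate-free stretches set aside the count was 2 of 4, beside 8.85% of the 13400 protein-coding genes outside them. That change from 2 of 6 follows from how the stretches are defined. Among other pathway genes, the count of 2 of 22 fell to 1, ddp-1, with a window of 500 bp and also with the nearest 5' end, near those shares of all genes, because the summit at hsp-60 is 631 bp upstream of it and nearer to Y22D7AL.10. It was 3 with a window of 2000 bp, where tin-13 joined and the share of all genes was 8.20%, and 2 in either replicate's own list. Outside the candidate-free stretches it was 2 of 21 (9.52%), near the 8.85% of all protein-coding genes there. A window of 500 bp left 0 main peaks of the 6 genes shared with another gene, against 1 with 1000 bp, since F15D3.6 begins 903 bp from the timm-23 summit. The signals at timm-23 and tomm-20 were the same in the conservative list. No paired analysis was possible because there is 1 group and no test. With depth unknown, how low a signal the lists could miss is not known, least of all in stretches without candidates.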
